A study of Mus musculus with 15 samples.

Results

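The cytosolic ribosomal protein genes encode the protein parts of the ribosome that works in the cytoplasm. The protein-coding genes of the mouse GENCODE M21 annotation were searched for symbols that start with Rpl or Rps and a number. Rplp0, Rplp1, Rplp2 and Rpsa were added, and ribosomal S6 kinases, Rps19bp1 and pseudogenes were left out. That gave 85 genes of the 55266 with a transcript in the data. They comprise 43 genes of the large (60S) subunit, 31 of the small (40S) subunit, 3 of the stalk (Rplp0, Rplp1, Rplp2) and 8 paralogues of other members, and 57 of the 85 had enough reads to be tested.

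Ribosomal protein mRNAs start with a cytosine followed by a run of pyrimidines, the terminal oligopyrimidine (TOP) motif. When mTORC1, a kinase complex that reads growth factors and nutrients, is active, TOP mRNAs are translated, and when it is inactive LARP1 binds their cap and holds them untranslated but stable. RNA-seq measures the amount of RNA, not its translation, so the values here are levels of transcripts only.

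The samples came from NIH3T3, an immortal mouse fibroblast line, made into stable lines in which doxycycline induces a fusion of histone H2A. One line carried H2A-mCherry, the control, and the other H2A-TerminaTOR, in which a protein inhibitor of mTORC1 is anchored by the histone. All groups were starved, and all but 1 then received PDGF, which stimulates fibroblasts to grow. Polyadenylated RNA was sequenced in 15 libraries, 5 groups of 3. H2A-mCherry cells gave 4 groups: without PDGF, with PDGF, with Rapamycin (an mTORC1 inhibitor) and PDGF, and with Cycloheximide (which blocks translation) and PDGF. H2A-TerminaTOR cells gave 1 group, with Cycloheximide and PDGF. Both groups of the TerminaTOR comparison therefore carried the translation block, and TerminaTOR cells without it were not analysed here. Because the comparison is between different stable lines, TerminaTOR and other differences between the lines cannot be told apart. Whether each line is 1 clone, the doses, the times and the use of doxycycline per group are given in no source used here. The labels name no separate cultures behind the replicates, so p-values measure only how far these samples spread, and that spread may be technical.

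Libraries held 3466202 to 6777780 counts. The labelled fibroblasts showed all 10 fibroblast markers, with a summed level of 4643 to 9150 CPM by library (counts scaled to library size, here with TMM factors). Summed epithelial markers were at 0.475 to 4.14 CPM with Epcam, Krt18 and Krt19 at 0, endothelial markers at 0.654 to 4.73 CPM, and macrophage markers at 6.72 to 26.1 CPM with Adgre1 at 0. The macrophage sum was 6.72 to 11.3 CPM without PDGF, 16.0 to 18.8 CPM with it, 16.9 to 18.8 CPM with rapamycin, 17.8 to 26.1 CPM with cycloheximide and 17.5 to 23.2 CPM in TerminaTOR cells. The fibroblast sum was lowest with rapamycin, at 4643 to 5028 CPM, and 7312 CPM or more in every other library. The part of these markers in the results was not tested. Mitochondrially encoded genes took 11.5% ± 0.560 (SD, n = 3) of counts without PDGF, 9.03% ± 0.310 with PDGF, 10.5% ± 0.610 with rapamycin and 6.51% ± 0.207 with cycloheximide. In bulk RNA, fewer cells of a type and less RNA per cell cannot be told apart.

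Where the reads of these genes lie decides what their values mean. The authors counted reads per transcript, and a read that several transcripts share was seldom counted, so a gene's sum is made mostly of bases that belong to 1 transcript. Members with 1 annotated transcript were the deepest: Rps3a1 had 427469 reads over the 15 libraries, Rplp1 308623 and Rpl36 89545. These 3 genes held 91.1% of all reads of the 85 members. The median tested member had 530 reads. Only 18 tested members had over 1000 reads. Of the 28 members that were not tested, 5 (Rpl10l, Rpl17, Rpl29, Rpl38 and Rps13) had no read, and the deepest had 87.

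Reads also differed in the kind of transcript they fell on. In 29 tested members most reads lay in protein-coding transcripts, and in 28 most lay in transcripts annotated as retained intron or processed transcript. All 24069 bases specific to the members' tested retained-intron transcripts lay in introns of the gene. For Rpl10a, the protein of the L1 stalk of the large subunit, 0.0786% of reads were in coding transcripts, and 1272 of its 1273 reads fell on the retained-intron transcript Rpl10a-204, with specific bases within 28329792 to 28330524 on chromosome 17. A value for such a gene is that of its intron bases and not of its spliced coding mRNA. Outside the 3 deepest members, 17.4% of reads lay outside protein-coding transcripts.

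**Figure D1:**
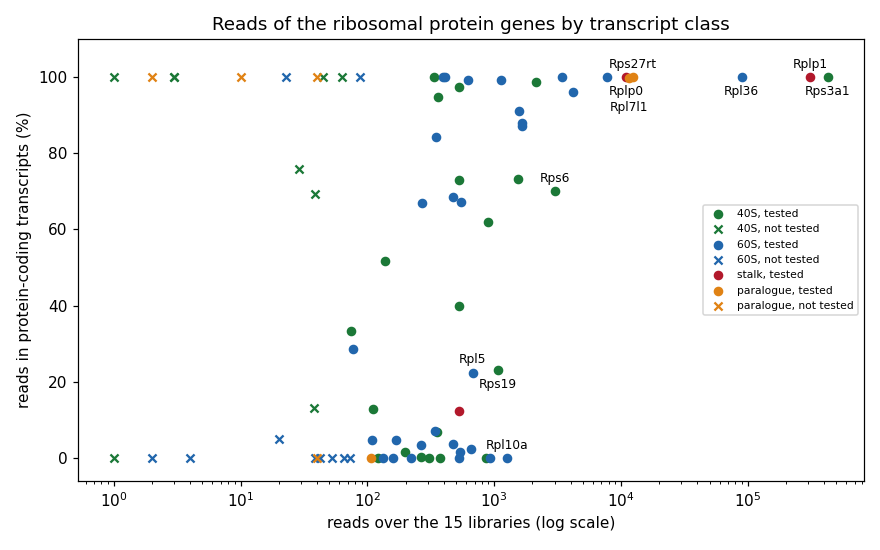
Reads of each ribosomal protein gene over the 15 libraries (log scale) against the percent of them in protein-coding transcripts. Each point is a gene, coloured by role, and crosses are genes that were not tested. Rps3a1, Rplp1 and Rpl36 stand at the right with all reads in coding transcripts, and 28 tested genes lie under 50%.

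Pyrimidine runs at the starts of these genes are shown because they are the mark of TOP mRNAs. RefSeq promoters (GRCm38.p6) were matched for 65 of the 85 members. A run of at least 8 C or T on the gene's strand within 50 bases of the start was found in 53 of 65 members (81.5%) and in 39.3% of all 27025 genes. The 30 bases around the longest run are given for 10 of the members described below, with the run in capitals.
Rpl15: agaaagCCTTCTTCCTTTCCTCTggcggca
Rpl27a: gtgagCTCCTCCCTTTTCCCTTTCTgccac
Rpl4: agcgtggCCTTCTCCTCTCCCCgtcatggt
Rps10: cgcgcacgCCCCTTCCTTTCCagcctccgc
Rps6: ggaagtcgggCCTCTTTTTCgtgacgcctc
Rplp2: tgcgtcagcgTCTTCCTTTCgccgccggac
Rpl39: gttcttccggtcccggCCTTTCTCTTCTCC
Rplp0: ggaccgcctggTTCTCCTataaaaggcaca
Rps3a1: acgtagacggcgCTCCCCgcccggctcgcg
Rpl7l1: gtcgaggcgggCCTCTCTaccccgcccggt
The run of Rpl15 (chr14:18270967-18270996, minus strand) is 17 bases long and begins 4 bases before the RefSeq start. That of Rpl27a (chr7:109519186-109519215, plus strand) is 20 bases long and also begins 4 bases before it. Rps10 (chr17:27635226-27635255, minus strand) has 13 bases, Rps6 (chr4:86857349-86857378, minus strand) 10 bases and Rplp2 (chr7:141447636-141447665, plus strand) 10 bases, all across the start. In Rpl39 (chrX:37085173-37085202, minus strand) the 14-base run begins 36 bases into the transcript, and in Rpl4 (chr9:64173406-64173435, plus strand) a 15-base run begins 26 bases into it. The Rpl39 run ends at the edge of the bases searched, so it may be longer. No run of 8 was found in Rplp0 (chr5:115559467-115559496, plus strand), where the longest has 7 bases, or in Rps3a1 (chr3:86142623-86142652, minus strand), where it has 6. The search depends on the RefSeq start, so a missing run does not mean that the mRNA lacks a TOP motif. A run that was found need not be a TOP motif, because runs before the start or further into the transcript were counted too. Rpl7l1 (chr17:46782670-46782699, minus strand), a paralogue of Rpl7 with its own gene, had no run longer than 7 bases, and that one lies before the start. The letters CCGGAAG, the core of ETS factor sites, occurred on either strand of the 300-base window in 26 of 65 members (40%) and in 9.93% of all genes. The letters AAGATGGCG, a YY1-like core, occurred in 4 members (6.15%) and in 1.64% of all genes. These matches describe letters and not bound sites.

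PDGF against no PDGF asks which of these RNAs change when starved cells receive the growth factor. Of the 57 members tested, 23 were higher with PDGF and 1 was lower (edgeR quasi-likelihood test, Benjamini-Hochberg adjusted p under 0.05). Over all 10603 genes tested, 20.1% were called higher and 16.9% lower. The median log2 change of the members was 0.54, against -0.01 over all genes. Libraries of the groups did not overlap for 29 members, and for 46.2% of all genes. Called members came from both subunits, with 12 of 30 of the large subunit, 7 of 21 of the small subunit, 3 of 3 of the stalk and 1 of 3 tested paralogues higher.

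Library scaling bears on this comparison. Trimmed-mean scaling (TMM) centres the median of all genes near 0, and with total counts in its place that median moved to -0.26. The members' median was then 0.29, and 5 members were called higher and 2 lower, against 13% and 29.3% of all genes. The share of members called higher was thus above that of all genes with TMM and below it with total counts. This scaling shifts all genes alike, and 9 of 57 members with small positive changes turned negative. With total counts Rpl34, Rpl37, Rpl7l1, Rplp2 and Rpsa were called higher, and Rps27rt and Rps3a1 lower. Other members described below were then not called, with Rplp0 at 0.08, Rpl4 at 0.15, Rps6 at 0.18, Rpl39 at 0.41 and Rpl36 at -0.06. As a share of all counts the 85 members made up 1.65% ± 0.117 (SD, n = 3) without PDGF and 1.56% ± 0.0805 with PDGF. Higher and lower below mean relative to the other genes, as TMM sets it.

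The stalk is the flexible arm of the large subunit that recruits the translational GTPases. Rplp0, which anchors it, was at 133, 155 and 159 CPM without PDGF and at 177, 204 and 181 CPM with PDGF. All 3 libraries with PDGF lay above all 3 without. Rplp0 rose by a log2 change of 0.33 (SE 0.09, edgeR, Benjamini-Hochberg adjusted p = 0.00246). Rplp1, an acidic stalk protein, was at 5114, 4749 and 4123 CPM without PDGF and at 5072, 5470.5 and 5739.5 CPM with it. The groups overlapped for Rplp1, the log2 change was 0.22 (SE 0.08, edgeR adjusted p = 0.0346), and with total-count scaling it was -0.03. Rplp2, the partner of Rplp1, had most of its 531 reads outside coding transcripts. Its level was 5.09, 4.36 and 5.61 CPM without PDGF and 14.9, 10.1 and 10.2 CPM with PDGF. The groups were apart and Rplp2 rose by 1.20 (SE 0.28, edgeR adjusted p = 0.000365).

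In the large subunit, Rpl4, one of the proteins that line the exit tunnel, was at 77, 95.3 and 111 CPM without PDGF and at 117, 131 and 124 CPM with it. The groups did not overlap and Rpl4 rose by 0.40 (SE 0.10, edgeR adjusted p = 0.000713). Rpl39, a small protein of the same tunnel, went from 17.3, 21.4 and 23.2 CPM to 34.7, 34.1 and 29 CPM. Rpl39 rose by 0.66 (SE 0.17, edgeR adjusted p = 0.00123) with no overlap. Rpl36, with all reads in its coding transcript, was at 1356, 1288 and 1155 CPM and then at 1328, 1442 and 1560.1 CPM. Its groups overlapped, and its log2 change of 0.19 (SE 0.07, edgeR adjusted p = 0.0456) is the smallest called in this comparison. The largest log2 change, 3.02 (SE 0.80, edgeR adjusted p = 0.00147), was that of Rpl37, which rests on 6 reads in the 3 libraries without PDGF and 40 with it. Rpl34 (1.04), Rpl13 (1.05) and Rpl37a (0.91) were the other large-subunit members among the 8 largest rises. Most reads of Rpl37, Rpl13 and Rpl37a lay outside coding transcripts, and Rpl13 and Rpl37a lost their calls in 6 and 7 of 23 alternatives. In coding transcripts only, Rpl34 was at 0.68 and was not called (edgeR adjusted p = 0.121). Rpl3, Rpl5 and Rpl11 were not called, at 0.03 (SE 0.26), 0.44 (SE 0.25) and -0.34 (SE 0.39). Rpl5 and Rpl11 form with 5S rRNA the particle that binds MDM2 when ribosome assembly fails.

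In the small subunit, Rpsa, which joins the subunit late in assembly, was at 3.82, 6.54 and 4.49 CPM without PDGF and at 11.3, 11.9 and 11 CPM with it. The groups were well apart, and Rpsa rose by 1.21 (SE 0.30, edgeR adjusted p = 0.000777). Rps27a, made as a fusion to ubiquitin, went from 3.63, 3.49 and 3.74 CPM to 7.16, 7.24 and 7.25 CPM, all on transcripts other than the coding ones. It rose by 0.99 (SE 0.37, edgeR adjusted p = 0.0292) without overlap. Rps6, the substrate of S6 kinase downstream of mTORC1, was at 38, 45.2 and 27.1 CPM and then at 47.4, 44.5 and 55.5 CPM. The Rps6 groups overlapped, and the log2 change was 0.43 (SE 0.14, edgeR adjusted p = 0.0114). In coding transcripts only, Rps6 was at 0.29 and was not called (edgeR adjusted p = 0.143). Its call was lost in 5 of 24 alternatives. The deepest member, Rps3a1, a protein of the subunit's platform, was at 6990.5, 6792 and 6257 CPM without PDGF and at 6921, 7266 and 7497 CPM with it. It was not called, with overlapping groups and a 95% interval of 0.01 to 0.22 for the log2 change (adjusted p = 0.0786 by edgeR). With total-count scaling Rps3a1 turned to -0.14 and was called lower (edgeR adjusted p = 0.0203).

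Among paralogues, Rpl7l1, which takes part in large-subunit assembly, was at 107, 118 and 109 CPM without PDGF and at 143, 176 and 169 CPM with it. It rose by 0.55 (SE 0.08, edgeR adjusted p = 2.68e-08) and its groups did not overlap. Rpl7 itself was not called, at -0.20 (SE 0.41) with 268 reads in all. Rps27rt was the member called lower, at -0.23 (SE 0.08, edgeR adjusted p = 0.0198), from 178, 189 and 201 CPM to 162, 171 and 150.4 CPM. That value is uncertain, because Rps27rt is an intronless copy whose transcript is identical to Rps27-201 at 341 of 341 aligned bases, while Rps27 itself had 63 reads. Their starts show the identity, with the shared bases in capitals.
Rps27rt: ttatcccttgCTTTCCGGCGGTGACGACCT
Rps27: gctttcgctcCTTTCCGGCGGTGACGACCT
The first lies at chr9:114982720-114982749 and the second at chr3:90213628-90213657, both on the minus strand of GRCm38.p6 from RefSeq. In the windows compared the shared stretch is 38 bases long. Reads from the pair cannot be told apart over it.

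The count of members higher with PDGF rested on single libraries in part. It was 14 without the third library without PDGF, 15 without the second with PDGF and 15 without the third with PDGF, of 59, 60 and 60 members tested in these fits. Over all genes these fits called 2068, 1972 and 1932 higher. Rpl37, Rpsa and Rplp2 were called under every alternative that gave a value for them, and Rps27a lost its call in 9 of 23.

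**Figure D2:**
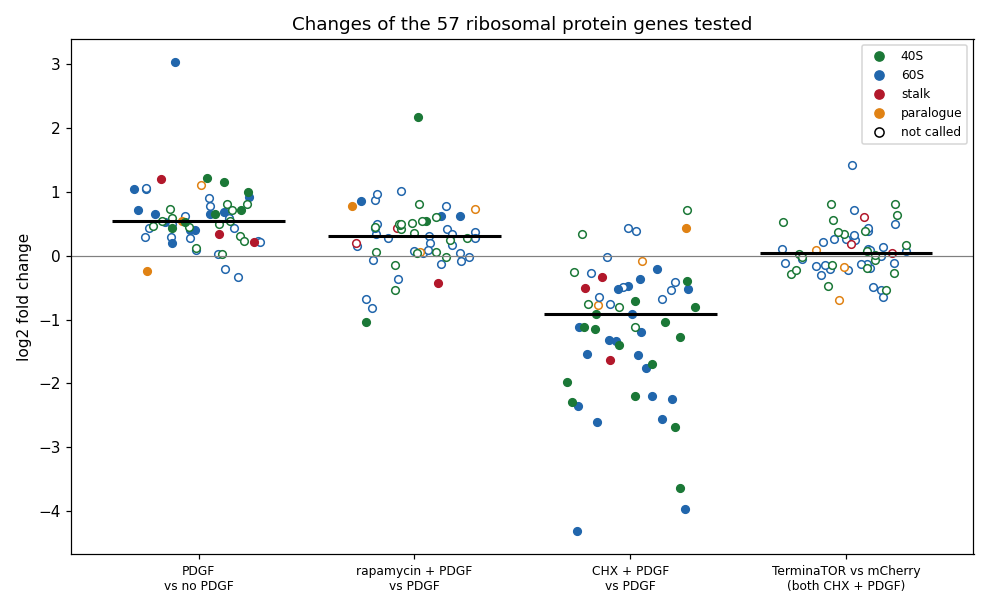
Log2 fold change of the 57 ribosomal protein genes tested in each of the 4 main comparisons. Points are genes coloured by role, filled where called, and black bars are medians, at 0.54, 0.31, -0.91 and 0.05 from left to right.

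Rapamycin with PDGF against PDGF asks what the mTORC1 inhibitor does to these RNAs in stimulated cells. Of 57 members 6 were higher and 2 were lower (edgeR, adjusted p under 0.05), against 16.3% and 16.1% of all genes. The members' median was 0.31 and that of all genes 0.02. Libraries did not overlap for 18 members and for 40.9% of all genes. Total-count scaling moved the median of all genes to -0.10 and left 3 members called higher, against 11.9% of all genes.

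Rpl4 was at 177, 215 and 181 CPM with rapamycin, above the 117 to 131 CPM of the PDGF libraries. It rose by 0.62 (SE 0.10, edgeR adjusted p = 2.55e-07). Rps10, whose reads are 73.3% coding, rose by 0.54 (SE 0.17, edgeR adjusted p = 0.00973), from 23.1, 34.9 and 28.6 CPM to 38.4, 44.6 and 42.8 CPM. Rpl32 (0.86) and Rpl6 (0.62) rose on 413 and 653 reads, and Rps29 (2.18) on 9 reads with PDGF and 38 with rapamycin. Rps27rt was at 255, 327 and 250.1 CPM with rapamycin and rose by 0.78 (SE 0.08, edgeR adjusted p = 3.57e-12), with the uncertainty between it and Rps27 given above.

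Rplp1 and Rps20 were the members called lower with rapamycin. Rplp1 was at 4258, 3976 and 3804 CPM, below its 5072 to 5739.5 CPM with PDGF alone. It fell by 0.44 on the log2 scale (SE 0.08, edgeR adjusted p = 0.000188). Its stalk partners did not pass the test, with 0.19 (SE 0.09) for Rplp0 and 0.43 (SE 0.26) for Rplp2. Rps20, a protein of the small subunit's head, was at 42.4, 44.7 and 41 CPM with PDGF and at 18.9, 17.2 and 25.7 CPM with rapamycin. The groups were far apart, and Rps20 fell by 1.03 on the log2 scale (SE 0.16, edgeR adjusted p = 1.19e-07). Of its 2149 reads, 2122 were on Rps20-203, the coding transcript with a last exon from 3831334 to 3834683 on chromosome 4. The 3136 bases from 3831334 to 3834469 of that exon lie beyond the end of the other transcripts, so the value is mainly that of a long 3′ end. Rps3a1 and Rpl36, the other members of great depth, were at -0.03 (95% interval -0.13 to 0.08) and -0.08 (-0.23 to 0.07). With total-count scaling Rps3a1 was at -0.15 and was called lower (edgeR adjusted p = 0.0127). Rps6 was at 59.6, 51.7 and 67.5 CPM with rapamycin, with a log2 change of 0.28 (SE 0.14, edgeR adjusted p = 0.121) that was not called. Without the third PDGF library 3 of 60 members tested were called higher, and 1415 of all genes. Rpl4, Rps27rt, Rps20 and Rplp1 kept their calls in all 24 alternatives.

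Set against no PDGF, in a comparison that shares its libraries with both above, the rapamycin group had 38 members higher and 2 lower of 57. The shares of all genes were 27.8% and 25.5%, and the members' median was 0.83. Libraries did not overlap for 37 members and for 56.3% of all genes. Rpl4 was 1.02 (SE 0.10) above no PDGF, Rps10 1.19 (SE 0.17), Rps6 0.71 (SE 0.14) and Rpl27a, of the large subunit, 0.39 (SE 0.11), all called. Rplp1 (-0.22) and Rps20 (-1.01) were the members called lower. With total-count scaling 17 were called higher and 4 lower, against 18.1% and 39.2% of all genes.

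**Figure D3:**
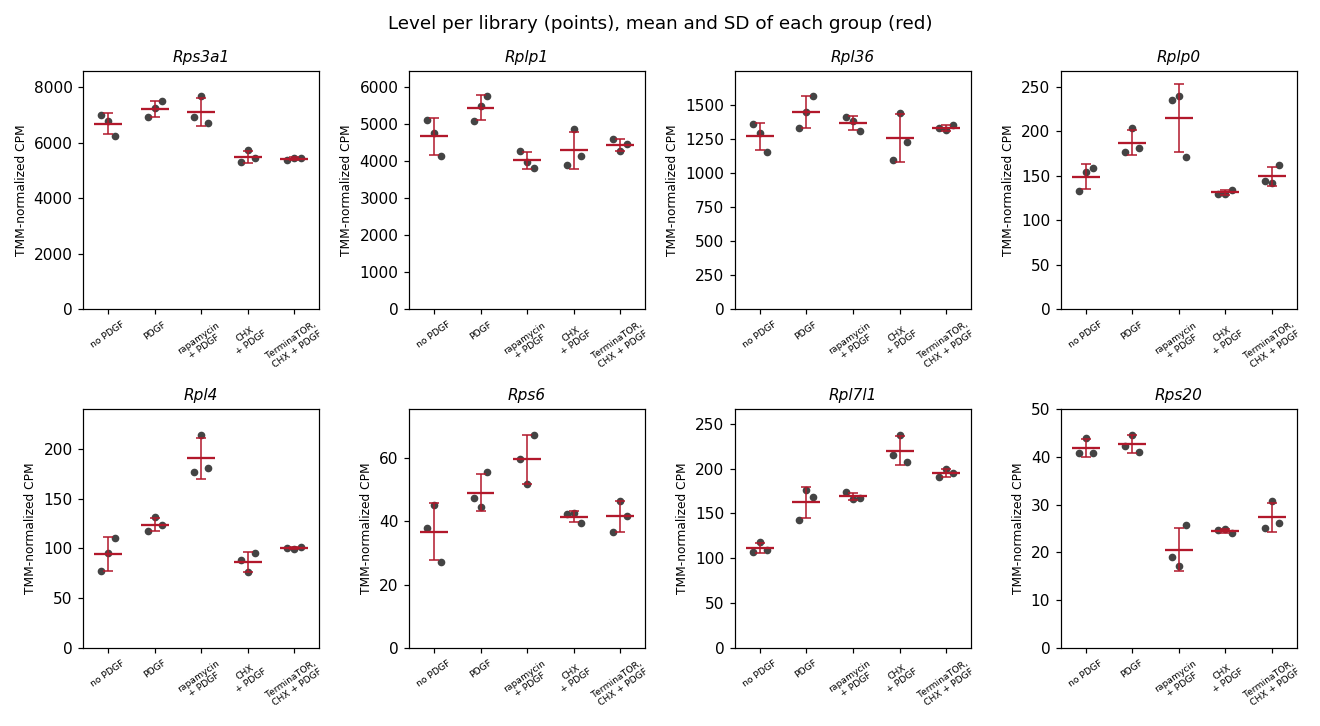
TMM-normalized CPM of 8 ribosomal protein genes in the 15 libraries, with axes that start at 0. Points are libraries and red marks are the mean and SD of each group of 3. Rplp1 and Rps20 are lowest with rapamycin, Rpl4 is highest there, and Rpl7l1 is highest with cycloheximide (CHX).

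Cycloheximide with PDGF against PDGF shows these RNAs when translation is blocked during stimulation. Of 57 members 38 were lower and 1 was higher (edgeR, adjusted p under 0.05), where 19.6% of all genes were lower and 21% higher. The members' median was -0.91, against 0.01 over all genes. Libraries did not overlap for 40 members and for 50.6% of all genes. Both subunits and the stalk took part, with 20 of 30, 15 of 21 and 3 of 3 lower, and none of the 3 paralogues.

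The 3 deepest members fell by small amounts. Rps3a1 was at 5312, 5733 and 5453 CPM with cycloheximide, below its 6921 to 7497 CPM with PDGF, and fell by 0.39 on the log2 scale (SE 0.05, edgeR adjusted p = 1.79e-09). Rplp1 was at 3893, 4849 and 4123 CPM, all below the PDGF libraries, and fell by 0.34 (SE 0.08, edgeR adjusted p = 0.00162). Rpl36 was at 1096, 1442 and 1225 CPM, which overlaps PDGF, with a log2 change of -0.20 (SE 0.07, edgeR adjusted p = 0.0288). Some of the other deep coding members fell a little more. Not all did: Rps27rt was at -0.08, Rpl7l1 rose by 0.43, and Rpl27a and Rps6 were at -0.36 and -0.25. Rplp0 was at 129.9, 129.8 and 135 CPM and fell by 0.51 (SE 0.09, edgeR adjusted p = 7.92e-06), with no overlap. Rpl4, at 88.1, 75.9 and 95.7 CPM, fell by 0.51 (SE 0.10, edgeR adjusted p = 1.75e-05), also with no overlap. Rpl15, of the large subunit, went from 59.8, 56.6 and 61.1 CPM to 45.3, 40.1 and 38 CPM, a fall of 0.52 (SE 0.13, edgeR adjusted p = 0.000457). For Rps20 the libraries stood at 24.6, 25 and 24 CPM, a fall of 0.80 (SE 0.15, edgeR adjusted p = 8.92e-06).

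Larger falls were seen in members read mostly through introns. Rpl10a was at 33, 25.6 and 30.4 CPM with PDGF and at 7.24, 4.79 and 5.19 CPM with cycloheximide. It fell by 2.36 (SE 0.21, edgeR adjusted p = 2.13e-15), with the groups wide apart. Rps19, the small-subunit protein often mutated in Diamond-Blackfan anaemia, went from 28.9, 24 and 26.3 CPM to 0.827, 4.29 and 1.54 CPM. It fell by 3.64 (SE 0.45, edgeR adjusted p = 4.39e-06). Rpl5 was at 15.7, 17.3 and 13 CPM and then at 1.86, 4.29 and 3.84 CPM, a log2 change of -2.20 (SE 0.30, edgeR adjusted p = 2.88e-09). The same holds for thinner members. Rpl12 had 60 reads with PDGF and 4 with cycloheximide, Rpl8 61 and 11, Rpl13a 131 and 25, Rps9 42 and 7 and Rps27a 89 and 20, all called lower without overlap. Rpl37 had 40 reads and 2, a ratio of depth-scaled counts of 0.044 with a 95% interval of 0.00515 to 0.17 that covers counting error only. Rplp2 fell by 1.63 (SE 0.30, edgeR adjusted p = 5.98e-06) and Rpl3 by 1.75 (SE 0.31, edgeR adjusted p = 2.3e-06).

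Rpl7l1 was the member that rose with cycloheximide. Its libraries were at 215, 238 and 207 CPM, above the 143 to 176 CPM with PDGF, and it rose by 0.43 (SE 0.08, edgeR adjusted p = 3.12e-06). Its call held in all 24 alternatives. Rpl7 was not called at -0.27 (SE 0.43), nor was Rps6 at -0.25 (SE 0.14) with libraries at 42.2, 42.6 and 39.4 CPM, below the 3 PDGF libraries, nor Rpl11 at 0.38 (SE 0.40). Rps27rt was at -0.08 (SE 0.08). Among the other paralogue pairs, Rpl22 fell by 2.25 (SE 0.64, edgeR adjusted p = 0.0028) on 132 reads, while its paralogue Rpl22l1 was not called at -0.77 (SE 0.70) on 106 reads. Rps4x fell by 2.19 (SE 0.64, edgeR adjusted p = 0.0042) on 139 reads, and Rpl10 was not called at 0.43 (SE 0.70). Rpl10 and Rpl22l1 were called in none of the 4 main comparisons.

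Split by where reads lie, 16 of the 29 members with mostly coding reads were lower, with a median of -0.50, and 22 of the 28 others, with a median of -1.59. The same fit on single transcripts gave 13 lower and 1 higher of the members' 38 tested coding transcripts, with a median of -0.36. Over the 6937 coding transcripts of all genes, 15.9% were lower and 26.8% higher, with a median of 0.12. Of the members' 40 retained-intron transcripts 26 were lower and 0 were higher, with log2 changes from -4.01 to -0.68 and a median of -1.73. All retained-intron transcripts, 2852 in number, were lower in 26.1% and higher in 7.89%, with a median of -0.46. The members' 11 processed transcripts had 6 lower and 0 higher, against 17.6% and 9.02% of all processed transcripts, and a median of -1.75.

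In 14 members both kinds of transcript were tested, so that the gene serves as its own reference. The mean log2 change of the other transcripts lay below that of the coding transcripts in 14 of 14 with cycloheximide, with medians of -1.82 and -0.35. Over all genes retained-intron and processed transcripts also had lower medians (-0.46 and -0.24) than coding ones (0.12). A comparison within genes was made for members only. Rpl27a shows the pattern. Its coding transcript Rpl27a-203 was at 62.9, 67.2 and 61.3 CPM with PDGF and at 53.8, 56.2 and 48.6 CPM with cycloheximide, a log2 change of -0.27 (SE 0.12, edgeR adjusted p = 0.0576). Its retained-intron transcript Rpl27a-202 was at 4.63, 2.33 and 4.57 CPM and then at 0, 0.774 and 2.34 CPM, a change of -1.82 (SE 0.58, edgeR adjusted p = 0.00844). In Rps3, a small-subunit protein at the mRNA entry, coding Rps3-201 was at -0.65 (SE 0.29, edgeR adjusted p = 0.0719) and retained-intron Rps3-204 at -1.81 (SE 0.39, edgeR adjusted p = 7.67e-05). Rps19 differs in that its coding transcript Rps19-201 fell as well, by 2.93 (SE 0.60, edgeR adjusted p = 3.89e-05). Rps6 had the smallest gap, with -0.17 for its coding and -0.33 for its other transcript.

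For the other comparisons the gap was smaller or mixed. With PDGF against no PDGF the other transcripts lay above the coding ones in 10 of 14 members, with medians of 0.75 and 0.32. With rapamycin they lay above in 8 of 14 (0.31 and 0.39), and with TerminaTOR in 8 of 14 (0.11 and -0.02). As shares of all counts, the members' transcripts outside the coding class made up 0.0236% ± 0.00170 (SD, n = 3) without PDGF, 0.0315% ± 0.00264 with PDGF, 0.0363% ± 0.00303 with rapamycin, 0.00923% ± 0.000715 with cycloheximide and 0.0103% ± 0.000377 in TerminaTOR cells. The same share over all protein-coding genes was 2.95% ± 0.219 with PDGF and 2.35% ± 0.154 with cycloheximide.

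**Figure D4:**
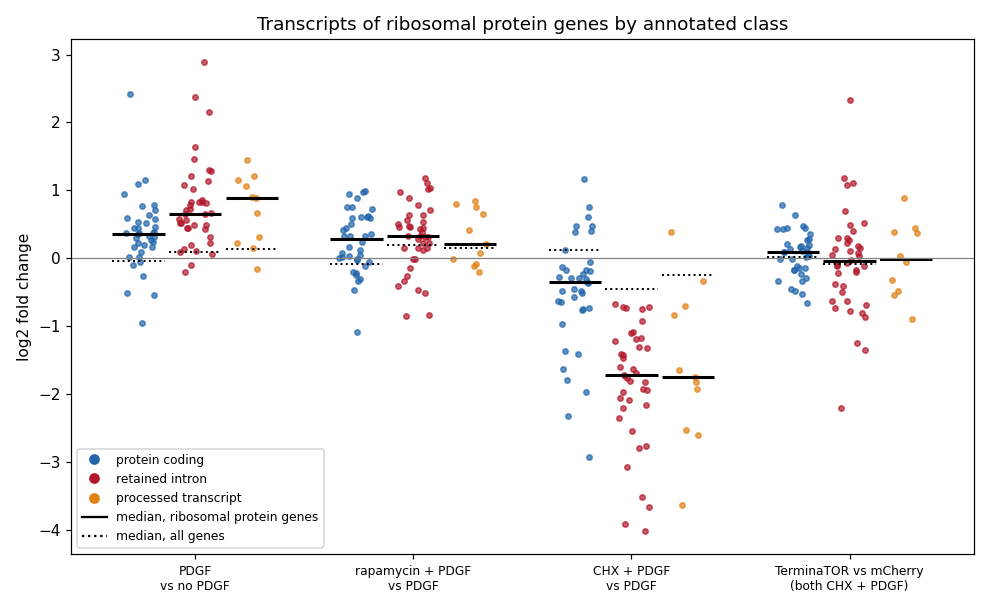
Log2 fold changes of the members' tested transcripts by annotated class in the 4 main comparisons. Points are transcripts, solid bars their medians and dotted bars the medians over all genes, and all 40 retained-intron transcripts lie below 0 with cycloheximide (CHX).

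**Figure D5:**
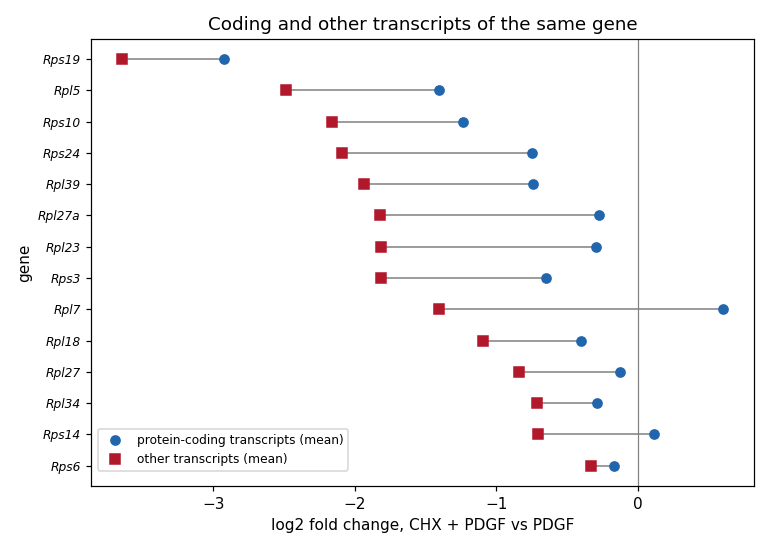
Mean log2 fold change with cycloheximide (CHX) of coding (blue circles) and other transcripts (red squares) of the 14 genes with both tested. The red square lies left of the blue circle in 14 of 14, and for Rps19 it includes a transcript without reads in the cycloheximide group that is set to the bound of 3 reads.

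Cycloheximide with PDGF was also set against no PDGF, with libraries shared with the comparisons above. Here 19 members were lower and 3 higher of 57, against 22.8% and 24.6% of all genes, with a median of -0.47. Libraries did not overlap for 25 members and for 54% of all genes. Rpl7l1 (0.98, SE 0.08), Rps15a (1.14, SE 0.35) and Rps15 (1.25, SE 0.37) were the members called higher. Rps3a1 was lower by 0.28 on the log2 scale (SE 0.05), Rpl10a by 1.84 (SE 0.22) and Rps19 by 3.14 (SE 0.46), and the stalk members were not called. With total-count scaling 34 members were called lower, against 41.5% of all genes.

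TerminaTOR against mCherry, both with cycloheximide and PDGF, asks what that inhibitor does to these RNAs. By edgeR 0 of 57 members were higher and 0 lower, against 2.35% and 2.57% of all genes, and 3 had an unadjusted p under 0.05. DESeq2 and limma-voom also called 0. The members' median was 0.05, and libraries did not overlap for 8 members and for 23.7% of all genes. In the deepest members the difference between these groups had narrow intervals, which rest on the spread of these samples alone. Rps3a1 was at 5374, 5468 and 5442 CPM in TerminaTOR cells and at 5312, 5733 and 5453 CPM in the control, a log2 change of -0.02 with a 95% interval of -0.12 to 0.09. Rplp1 was at 4585, 4261 and 4445 CPM, within the spread of the control, with an interval of -0.12 to 0.21 around 0.05. Rpl36 was at 1326, 1312 and 1351 CPM, with an interval of -0.07 to 0.24 around 0.08.

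Several smaller members lay beside the control without passing the test. Rpl4 was at 101, 99.1 and 102 CPM above the control's 75.9 to 95.7 CPM, with 0.21 (SE 0.10, edgeR adjusted p = 0.271). Rplp0 was at 144, 143 and 162 CPM, above the control's 129.8 to 135 CPM, with 0.18 (SE 0.09, edgeR adjusted p = 0.323). Rpl7l1 was at 190.3, 199 and 196 CPM, below the control's 207 to 238 CPM, with -0.17 (SE 0.08, edgeR adjusted p = 0.22). Rps20 was at 25.1, 30.9 and 26.2 CPM, just above the control, with 0.16 (SE 0.15). For members with few reads the intervals are wide and a change could not be detected at this depth. For Rps27a, with 20 and 33 reads, it ran from -0.43 to 1.54.

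The rapamycin and TerminaTOR effects share no library, and their difference was tested directly. The rapamycin effect was higher in 3 members and lower in 2 of 57, against 11.6% and 12.4% of all genes (edgeR, adjusted p under 0.05). Higher were Rps27rt (0.70, SE 0.12), Rpl4 (0.41, SE 0.14) and Rpl7 (1.60, SE 0.61), and lower were Rps20 (-1.20, SE 0.22) and Rplp1 (-0.48, SE 0.11). The rapamycin effect was measured without cycloheximide and the TerminaTOR effect with it, so drug, line and translation block cannot be told apart in this difference. The number higher was 1 without the second rapamycin library and 1 without the third cycloheximide library of the control. Over all genes 1169 and 1073 were higher in these fits.

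Other genes of the same programme were read from lists. Of 20 tested TOP mRNAs that are not ribosomal proteins, 10 were higher and 0 lower with PDGF, and 0 higher and 12 lower with cycloheximide. The shares over all genes were 20.1% and 16.9% with PDGF and 21% and 19.6% with cycloheximide. With PDGF, Eif3h, a subunit of the initiation factor eIF3, rose by 1.81 (SE 0.40), Rack1, a scaffold on the small subunit, by 1.11 (SE 0.24), and Pabpc1, the poly(A)-binding protein, by 1.02 (SE 0.14). With cycloheximide Rack1 fell by 2.16 (SE 0.27), Eif3l by 2.06 (SE 0.33) and Eef1g, an elongation factor subunit, by 1.71 (SE 0.24). With rapamycin 5 were higher and 1 lower (16.3% and 16.1% of all genes), among them Eef1d at 0.97 (SE 0.21) and Eef1a1 at -0.85 (SE 0.33). With TerminaTOR 0 were called in either direction by edgeR.

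Of 13 tested ribosomal protein chaperones and importins, 6 were higher and 1 lower with PDGF, 5 and 1 with rapamycin, 2 and 8 with cycloheximide, and 1 and 0 with TerminaTOR. Over all genes the shares higher and lower were 20.1% and 16.9%, 16.3% and 16.1%, 21% and 19.6%, and 2.35% and 2.57% in that order. Rrs1, which brings the 5S particle into the large subunit, rose by 1.16 (SE 0.07) with PDGF and by 0.82 (SE 0.07) with rapamycin against PDGF, and fell by 1.52 (SE 0.08) with cycloheximide. Ipo7, an importer of ribosomal proteins, rose by 1.41 (SE 0.12) with PDGF and by 0.60 (SE 0.11) with rapamycin. Ncl, the nucleolar protein nucleolin, rose by 0.34 (SE 0.07, edgeR adjusted p = 0.00059) in TerminaTOR cells.

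Of 16 tested regulators of TOP mRNAs and translation, 4 were higher and 3 lower with PDGF, 3 and 3 with rapamycin, 2 and 3 with cycloheximide and 1 and 1 with TerminaTOR. With PDGF and with rapamycin these counts are near the shares of all genes, 20.1% and 16.9% with PDGF and 16.3% and 16.1% with rapamycin. Over all genes 21% were higher and 19.6% lower with cycloheximide, and 2.35% and 2.57% with TerminaTOR. Eif4ebp1, the translational repressor that mTORC1 inactivates, rose by 0.64 (SE 0.18) with PDGF and by 0.73 (SE 0.17) with rapamycin, and fell by 1.51 (SE 0.19) with cycloheximide. Larp1b, a relative of LARP1, fell by 1.06 (SE 0.26) with rapamycin. Eif4ebp2 rose by 0.27 (SE 0.06, edgeR adjusted p = 0.00137) and Tia1, a protein that binds TOP mRNAs, fell by 0.69 (SE 0.21, edgeR adjusted p = 0.0414) in TerminaTOR cells.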

How the data were processed

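The authors deposited raw counts of reads per mouse transcript, 1 file per library, with 142446 transcripts each. Aligner and counter were HISAT2 2.2.1 and HTSeq 0.9.1, with R 4.1.0, per the submitters' processing notes. These name the human build hg38 although the identifiers are mouse, and no source used here gives the mouse build. Identifiers were matched to GENCODE M21 (GRCm38) without version, 141536 of them, and the rest held 0.0309% of counts. Counts were summed per gene and tested with edgeR 4.0.16 in R 4.3.3, with filterByExpr with a minimum count of 10, TMM scaling, a robust quasi-likelihood fit of all 15 libraries (10 residual degrees of freedom) and Benjamini-Hochberg adjustment over 10603 genes, or 13116 transcripts in a separate fit, with calls at 0.05. Standard errors (SE) were derived from the log2 change and its F statistic. The scripts were tested on simulated data. Strand use is not given, so antisense genes (as at Rpl15 and Rpl18), small nucleolar RNAs in introns and the pseudogenes of 60 members may take or give reads. Intervals cover counting or model error only. Libraries within a group all differed by more than sampling noise (chi-square per degree of freedom 2.56 to 8.12), so none was counted as a duplicate.

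The text names, per main comparison, up to 8 largest rises and falls among called members whose libraries do not overlap, a fixed set (Rps6, Rpl3, Rpl5, Rpl11, the stalk, Rpsa, Rps27a and paralogue pairs), and up to 4 called genes per other list. Other members (such as Rps3a1, Rpl36, Rpl15, Rpl27a, Rps3, Rps10, Rps15 and Rps15a) were named after their values were seen. Members and lists were chosen with earlier results of these data known. Alternatives were total-count and RLE scaling, DESeq2 1.42.0, limma-voom (limma 3.58.1), no filter, fewer groups, a replicate block, coding transcripts only, transcripts as deposited, and leaving out each library. The values of 1 member that the rule names are not reported here.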

Additional observations from a re-analysis of the deposited data

How the results depend on the processing

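Counts of members called depended mostly on scaling and on the transcripts counted, and the cause was not tested beyond what each setting does. With total-count scaling (57 members tested) the counts were 5 higher and 2 lower for PDGF against no PDGF, 3 higher for rapamycin against PDGF, 17 higher and 4 lower for rapamycin against no PDGF, 34 lower for cycloheximide against no PDGF, and 1 higher for the difference between the rapamycin and TerminaTOR effects. The shares of all genes were 13% and 29.3%, 11.9%, 18.1% and 39.2%, 41.5%, and 8.18% in that order. With coding transcripts only, 32 members were tested: 10 were higher with PDGF, 19 lower with cycloheximide, 23 higher and 1 lower for rapamycin against no PDGF, and 7 lower for cycloheximide against no PDGF. Over all genes that setting called 1575 higher with PDGF, 1459 lower with cycloheximide and 1672 lower for cycloheximide against no PDGF. For rapamycin against no PDGF it called 2077 higher and 1911 lower. The members' medians were then 0.41 with PDGF, -0.55 with cycloheximide, 0.68 for rapamycin against no PDGF and -0.20 for cycloheximide against no PDGF. Those of all genes were -0.0036, 0.0019, 0.011 and -0.015 in that order. With transcripts as deposited (55 members) 11 were higher with PDGF, 3 higher with rapamycin and 23 higher for rapamycin against no PDGF. Over all 13116 transcripts tested the shares higher were 18.1%, 13.2% and 26.1% in that order. Without a filter (80 members) 0 were lower with PDGF, 3 higher with rapamycin, and 1 higher for the difference of effects, and DESeq2 called 0 lower with PDGF. Over all genes without a filter, 1517 were lower with PDGF, 1315 higher with rapamycin and 898 higher for the difference of effects. DESeq2 called 1664 of all genes lower with PDGF.

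Leaving out 1 library at a time (58 to 60 members) gave 14 to 24 higher and 0 to 1 lower for PDGF, 3 to 6 higher and 2 lower for rapamycin, 1 higher and 34 to 39 lower for cycloheximide, 0 for TerminaTOR, 28 to 38 higher and 1 to 2 lower for rapamycin against no PDGF, 2 to 3 higher and 14 to 20 lower for cycloheximide against no PDGF, and 1 to 4 higher and 2 to 3 lower for the difference of effects. Over all genes these fits called 1916 to 2226 higher and 1456 to 1812 lower for PDGF. For rapamycin they called 1415 to 1756 and 1443 to 1810, and for cycloheximide 1901 to 2308 and 1816 to 2163. For TerminaTOR they called 141 to 277 and 154 to 295. Against no PDGF they called 2713 to 3028 and 2545 to 2775 with rapamycin, and 2369 to 2754 and 2116 to 2533 with cycloheximide. The difference of effects had 1073 to 1233 and 1111 to 1386. In these fits the members' median ran from 0.47 to 0.62 with PDGF, and that of all genes from -0.0047 to 0.022. With cycloheximide the members' median ran from -1.08 to -0.81, and that of all genes from -0.022 to 0.013. Replicate numbers gave no strong pairing of the samples, but a weak one was not excluded. Deviations of same-numbered libraries correlated at -0.040 to 0.076 over 30 pairs, with a median of 0.0080. Over 60 pairs with different numbers the median was -0.0036. Of 15 libraries, 9 correlated best with their own number. With the replicate block 21 members were higher with PDGF, and 1 was lower for rapamycin against no PDGF. Over all genes these counts were 2139 and 2706. The other counts of members moved by less than 1.5 times.

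Signs turned for members near 0 or with few reads. With PDGF, Rpl3 was at -0.23, Rps3a1 at -0.14 and Rplp1 at -0.032 under total-count scaling. Rpl3 was also at -0.028 by limma-voom and -0.20 by its deepest transcript. With rapamycin, Rpl39 was at -0.046 and Rpl7l1 at -0.073 under total-count scaling, and by deepest transcript Rpl39 was at -0.017, Rpl5 at -0.015 and Rps27a at -0.12. With cycloheximide Rpl7 was at 0.10 in coding transcripts and 0.60 in its deepest one. With TerminaTOR, Rps6 was at -0.010 by limma-voom, -0.20 in coding transcripts and -0.18 in its deepest one, where Rpl11 was at 0.14 and Rps27a at -0.052. Without 1 library at a time the log2 change with PDGF ran from -0.68 to 0.53 for Rpl11, -0.64 to 0.064 for Rpl7, -0.23 to 1.03 for Rpl10 and -0.16 to 0.24 for Rpl3. With rapamycin it ran from -0.038 to 0.11 for Rpl7l1, -0.069 to 0.33 for Rpl3 and -0.039 to 0.24 for Rpl39, and with cycloheximide from -0.52 to 0.16 for Rpl7 and -0.073 to 0.81 for Rpl10. With TerminaTOR it ran from -0.091 to 0.089 for Rps6, -0.12 to 0.58 for Rpl10, -1.23 to 0.69 for Rpl22l1, -0.026 to 0.14 for Rplp1, -0.28 to 0.041 for Rpl11, -0.29 to 0.27 for Rpl22 and -0.29 to 1.08 for Rps27a.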
